A study of Homo sapiens with 60 samples.

Results

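The genes described here are 39 genes of mitosis, taken from a list of symbols that names mitotic kinases, kinesins, kinetochore and checkpoint genes. No rule on measured values was used to draw up the list, but it was chosen with earlier results of these data known. All 39 symbols matched one of the 60675 gene IDs of the count table, and all 39 were among the 16982 genes that passed the filter on low counts and were tested. RNA was sequenced from HepG2, an established human hepatocellular carcinoma line, 24 h after the cells received an herbal extract or vehicle. All extracts had been made with 70% ethanol. The 4 herbs were Polygalae Radix (10, 50 and 250 ug/mL), Aucklandiae Radix (11.2, 56 and 280 ug/mL), Menthae Herba and Saposhnikoviae Radix (20, 100 and 500 ug/mL each). The 4 decoctions (20, 100 and 500 ug/mL each) are mixtures of herbs named Guibi-tang, Saengmaek-san, Okbyeongpung-san and Soyo-san. Below, the 3 doses of an extract are called low, medium and high. Per the series' design text, the high dose was 500 ug/mL or, where lower, the concentration that inhibited the cells by 20%. Vehicle was DMSO, at 0.1% in the sample labels and at 2% in the design text. There were 3 libraries of vehicle and of each dose of Guibi-tang, Menthae Herba, Saengmaek-san and Saposhnikoviae Radix, and 2 of each dose of Soyo-san, Polygalae Radix and Aucklandiae Radix. Okbyeongpung-san had 1 library per dose and was not tested. The labels do not say whether libraries of a group came from separate cultures. P-values set the difference between groups against the spread among libraries of a group, estimated over 22 groups. That spread may be technical only.

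Mitosis is driven by the kinase CDK1 bound to B-type cyclins, and it ends when the anaphase-promoting complex (APC/C) marks cyclin B and securin for destruction. The genes of its machinery are transcribed mainly late in the cell cycle, under the DREAM and MuvB complexes, the B-MYB protein and FOXM1. Their messages are therefore scarce in cells that are not dividing. In bulk RNA, fewer dividing cells and less message per dividing cell cannot be told apart.

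Promoters of such late genes are known for 2 short elements, the CCAAT box bound by NF-Y and the cell cycle homology region (CHR) that recruits DREAM and MuvB. RefSeq promoter windows of 300 bases (250 before to 50 after a transcription start, GRCh38.p14) were at hand for 33 of the 39 genes, in 40 windows. AURKA, BIRC5, FOXM1, TPX2, TTK and UBE2C had no entry. The 4 windows below belong to genes that results turn on: TOP2A and KIF20A were among the genes that fell most, CCNB2 fell with 4 extracts, and ECT2 rose with Aucklandiae Radix. Capitals mark CCAAT and the CHR letters TTTGAA or TTCGAA, on either strand (so that the reverse complements, such as ATTGG, are in capitals too). The windows are TOP2A at chr17:40417847-40418146 (minus strand), KIF20A at chr5:138178862-138179161, CCNB2 at chr15:59104896-59105195 and the first of 2 ECT2 windows at chr3:172750476-172750775 (plus strand for these 3).
TOP2A: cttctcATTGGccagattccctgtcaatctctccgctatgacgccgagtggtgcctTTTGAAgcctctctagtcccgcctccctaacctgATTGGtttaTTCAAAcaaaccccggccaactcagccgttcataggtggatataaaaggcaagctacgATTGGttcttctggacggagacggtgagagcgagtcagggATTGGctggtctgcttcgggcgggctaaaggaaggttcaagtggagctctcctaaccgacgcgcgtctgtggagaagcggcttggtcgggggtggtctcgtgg
KIF20A: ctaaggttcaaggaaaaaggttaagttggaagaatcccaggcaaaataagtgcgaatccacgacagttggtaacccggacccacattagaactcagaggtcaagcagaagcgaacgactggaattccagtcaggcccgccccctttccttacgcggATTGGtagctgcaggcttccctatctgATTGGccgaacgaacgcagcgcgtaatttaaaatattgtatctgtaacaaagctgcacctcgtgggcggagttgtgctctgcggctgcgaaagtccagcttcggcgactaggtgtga
CCNB2: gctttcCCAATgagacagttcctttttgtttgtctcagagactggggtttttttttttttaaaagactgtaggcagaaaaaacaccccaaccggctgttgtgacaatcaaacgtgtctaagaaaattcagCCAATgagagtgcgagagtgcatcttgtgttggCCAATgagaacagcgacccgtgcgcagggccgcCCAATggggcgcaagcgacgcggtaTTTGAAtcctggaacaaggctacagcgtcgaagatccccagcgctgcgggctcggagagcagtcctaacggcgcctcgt
ECT2: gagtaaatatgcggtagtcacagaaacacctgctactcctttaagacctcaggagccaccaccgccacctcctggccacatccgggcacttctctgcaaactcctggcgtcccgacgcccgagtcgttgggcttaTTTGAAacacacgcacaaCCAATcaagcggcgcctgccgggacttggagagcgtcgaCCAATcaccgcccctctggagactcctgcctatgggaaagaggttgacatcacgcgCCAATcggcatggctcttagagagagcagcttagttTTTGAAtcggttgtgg

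The CCNB2 window holds 4 CCAAT letters upstream of a TTTGAA that begins 29 bases before the start. The TOP2A window also holds 4 CCAAT, with TTTGAA letters beginning 194 and 151 bases before the start. The KIF20A window has 2 CCAAT and neither TTTGAA nor TTCGAA. The ECT2 window holds 3 CCAAT and 2 TTTGAA, so the letters were there also in a gene that went against most others. TTTGAA was found in a window of 24 of the 33 genes (72.7%) and of 18.2% of all 27305 genes in the table. TTCGAA was found in 2 (6.06%, against 1.82% of all genes), and TTTAAA, which overlaps neither, in 12 (36.4%, against 14.5%). CCAAT was found in 27 of the 33 genes (81.8%), against 39.7% of all genes, and 19 genes (57.6%) had 2 or more CCAAT in a window, against 12.9%. A TTTGAA or TTCGAA beginning within 50 bases of the start was found in 22 genes (66.7%), against 6.24% of all genes. These are matches of letters and not measured binding sites.

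The 60 libraries held 17.5 to 38.9 M counts (median 23.7 M), and mitochondrially encoded genes took 8.0% to 19.1% of them. Of the hepatocyte markers, ALB stood at 3650 to 10300 CPM (counts scaled to the library total) and none was at 0 in any library. Of 7 blood cell markers HBB was at 0 in all 60 libraries, PTPRC in 57 and CD3E in 59, while LYZ stood at 627 to 1650 CPM. Of 6 stromal markers DCN was at 0 in 60 and COL1A2 in 55, while ACTA2 stood at 8.47 to 57.1 CPM and PDGFRB at 4.89 to 17.1 CPM. Of 4 endothelial markers KDR was at 0 in 59, while PECAM1 stood at 1.8 to 6.36 CPM. Of 6 lung and gut markers CDX1 was at 0 in 60, NKX2-1 in 57 and SFTPC in 54, while VIL1 stood at 78.7 to 353 CPM. The 11 hepatocyte markers summed to 20600 to 24800 CPM at the high dose of Polygalae Radix against 52000 to 54000 at its low dose. The sums were 26100 to 27000 against 51200 to 52100 with Aucklandiae Radix, 28200 to 31000 against 54200 to 56500 with Menthae Herba, and 40800 to 41600 against 53100 to 54500 with Guibi-tang. The other sums moved as well. Blood markers summed to 631 to 709 CPM at the high dose against 1250 to 1290 with Polygalae Radix, 713 to 732 against 1160 with Aucklandiae Radix, 655 to 739 against 1130 to 1210 with Guibi-tang, and 1590 to 1640 against 1130 to 1310 with Menthae Herba. Stromal markers summed to 14.2 to 17.6 against 57 to 60.2 with Polygalae Radix, 28.7 to 34.2 against 61.8 to 62.9 with Aucklandiae Radix, 42.8 to 48.6 against 56.9 to 63.1 with Guibi-tang and 48.0 to 50.1 against 65.4 to 69.1 with Menthae Herba. Lung and gut markers summed to 87.6 to 94.4 against 298 to 306 with Polygalae Radix, 78.9 to 87.1 against 308 to 311 with Aucklandiae Radix, 238 to 260 against 332 to 340 with Guibi-tang and 298 to 342 against 344 to 348 with Menthae Herba. Endothelial markers summed to 2.33 to 2.42 against 4.17 to 5.27 with Polygalae Radix, 3.29 to 3.60 against 4.30 to 4.64 with Guibi-tang, 2.73 to 3.98 against 5.04 to 5.79 with Menthae Herba, and 5.91 to 6.81 against 4.29 to 4.54 with Aucklandiae Radix. Mitochondrially encoded genes took 17.5% to 17.7% at the high dose of Polygalae Radix against 12.0% to 12.9%, and 8.0% to 8.2% at that of Aucklandiae Radix against 12.4% to 14.0%. So hepatocyte, stromal and VIL1-led marker sums were lower at the same doses at which most mitosis genes fell. Smaller falls were also seen at high doses where few or no mitosis genes were called changed by the test given below. Hepatocyte sums were 48300 to 50000 against 55200 to 55600 with Soyo-san, and 52100 to 52600 against 55400 to 56900 with Saposhnikoviae Radix. Stromal sums were 53.5 to 54.9 against 63.6 to 66.2 with Saengmaek-san, while its hepatocyte sums overlapped. The part of these shifts in the results was not tested. The vehicle libraries carry a set label of their own (D1), whereas the extracts carry set labels 11 to 14 with 2 extracts each. For that reason the main comparison is the high dose against the low dose of the same extract, which stand in the same set.

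The mitosis genes were well measured. Averaged over the 57 tested libraries, CDC25C was lowest at 19.95 CPM and TOP2A highest at 649.4 CPM, with a median of 66.8 CPM over the 39 genes. Scaled by transcript length, ESPL1, which encodes separase, had 7.00 CPM per kb and TOP2A 113 CPM per kb.

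At the high dose, most mitosis genes fell with Guibi-tang, Aucklandiae Radix, Polygalae Radix and Menthae Herba. Few or none were called changed with Saposhnikoviae Radix, Saengmaek-san and Soyo-san. Genes were called by the edgeR quasi-likelihood test at a Benjamini-Hochberg adjusted p under 0.05 over all tested genes, and fold changes are log2 values, high over low dose. With Guibi-tang 39 of 39 fell, where 17.5% of all tested genes fell and 16.8% rose. With Aucklandiae Radix 34 fell and 1 rose (35.5% and 33.9% of all genes). With Polygalae Radix 32 fell and 4 rose (33% and 31.1%). With Menthae Herba 28 fell and none rose (12.5% and 10.8%). For Guibi-tang and Menthae Herba none rose at an unadjusted p under 0.05 or by DESeq2 either. The median log2 fold change of the 39 genes was -0.62 with Guibi-tang, -0.67 with Aucklandiae Radix, -0.66 with Polygalae Radix and -0.23 with Menthae Herba, and the median over all tested genes stood near 0 in each. Falls of more than 2-fold were seen for 15 genes with Aucklandiae Radix, 10 with Polygalae Radix, 2 with Guibi-tang and none with Menthae Herba. The high-dose libraries lay below every low-dose library for 39 genes with Guibi-tang, 36 with Menthae Herba, 35 with Aucklandiae Radix and 32 with Polygalae Radix. By the same rule the count was 18 with Soyo-san, 1 with Saposhnikoviae Radix and 1 with Saengmaek-san. Groups of 2 libraries, as with Soyo-san, Polygalae Radix and Aucklandiae Radix, can separate in this way by chance. Shares of all tested genes are not given for this rule or for falls of more than 2-fold. The comparisons with Guibi-tang, Menthae Herba, Aucklandiae Radix and Polygalae Radix share no libraries, though they share 1 estimate of the spread. In all 4 of them 23 genes were called lower. The share of all tested genes called lower in all 4 is not given, so the 23 cannot be set against it.

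**Figure D1:**
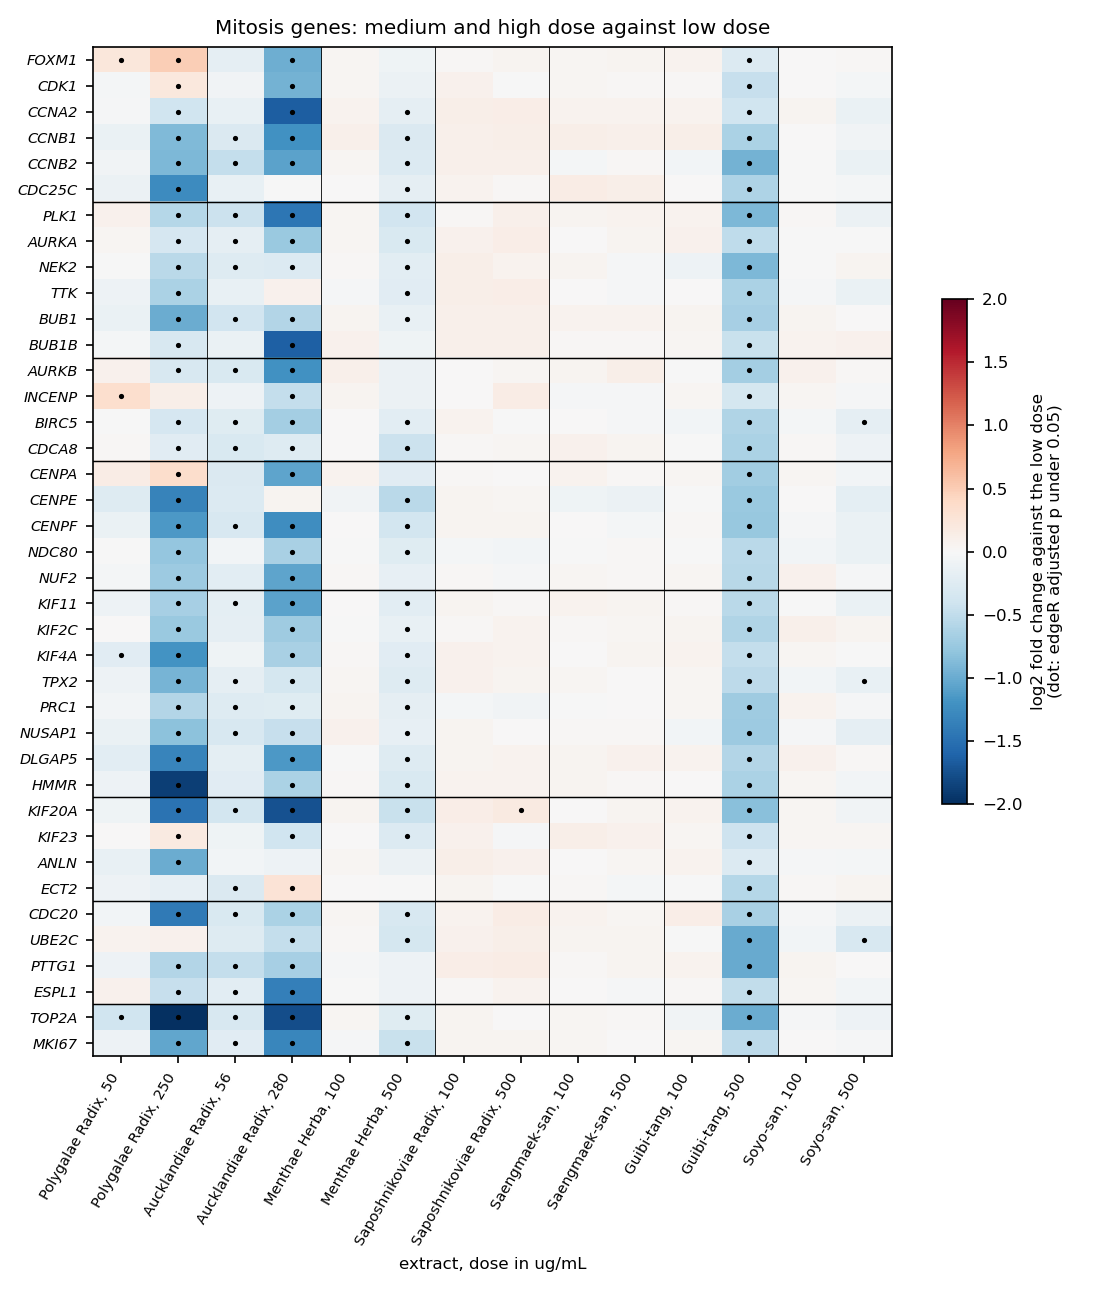
Log2 fold change of each mitosis gene (rows, in groups by role) at the medium and the high dose against the low dose of each extract (columns, doses in ug/mL), with a dot where the edgeR adjusted p was under 0.05. All 39 genes carry a dot at 500 ug/mL Guibi-tang, and 21 carry one at 56 ug/mL Aucklandiae Radix.

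Of the genes that start mitosis, both B-type cyclins fell with each of the 4 extracts. CCNB2 encodes cyclin B2, a partner of CDK1, and stood at 33.9, 30.0 and 33.3 CPM in the high-dose libraries of Guibi-tang against 61.3, 65.1 and 61.0 CPM at the low dose. It stood at 30.8 and 32.6 against 59.4 and 58.0 CPM with Polygalae Radix, and at 29.9 and 32.2 against 65.2 and 64.3 CPM with Aucklandiae Radix. The high-dose libraries of all 3 extracts thus reached a similar level, with no overlap with the low dose. Its log2 fold change was -0.95 ± 0.05 (SE) with Guibi-tang, -0.90 ± 0.06 with Polygalae Radix, -1.06 ± 0.06 with Aucklandiae Radix and -0.27 ± 0.05 with Menthae Herba. That of CCNB1, cyclin B1, was -0.64 ± 0.05, -0.88 ± 0.06, -1.21 ± 0.06 and -0.29 ± 0.05 in the same order. CCNA2, cyclin A2, which acts in S phase and in early mitosis, went with Aucklandiae Radix from 162 and 167 CPM (low dose) to 50.0 and 54.7 CPM (high dose). With Polygalae Radix it went from 160.0 and 154 CPM to 112 and 127 CPM, a smaller step. The log2 fold changes of CCNA2 were -1.66 ± 0.06 and -0.40 ± 0.06 (SE).

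FOXM1 and CDK1 went opposite ways with these 2 extracts. FOXM1 encodes a transcription factor that activates late cell cycle genes. It stood at 229.8 and 191 CPM at the high dose of Polygalae Radix against 145 and 153 CPM at the low dose, and both high-dose libraries were higher. With Aucklandiae Radix it stood at 76.4 and 82.8 CPM against 160.2 and 153 CPM, and both were lower. The log2 fold change was 0.49 ± 0.05 with Polygalae Radix (edgeR adjusted p = 1e-10) and -0.98 ± 0.06 with Aucklandiae Radix (edgeR adjusted p = 4.9e-20). Against vehicle, FOXM1 was not called with Polygalae Radix, and its high-dose libraries lay on both sides of the vehicle libraries. In Guibi-tang FOXM1 fell least of the 39 genes, from 155, 143 and 146 CPM to 123, 127 and 119 CPM, by 0.27 on the log2 scale. The level of CDK1, the kinase that drives mitosis, was 72.5 and 82.7 CPM at the high dose of Polygalae Radix against 68.8 and 64.8 CPM, and 31.1 and 35.2 CPM at the high dose of Aucklandiae Radix against 62.9 and 64.8 CPM. CDK1 was called higher with the first extract, by 0.21 ± 0.06 on the log2 scale, and lower with the second, at -0.95 ± 0.07. CDC25C, a phosphatase that activates CDK1, was called lower with Polygalae Radix only, of these 2 extracts. Its log2 fold change was -1.26 ± 0.08 with Polygalae Radix and -0.01 ± 0.07 with Aucklandiae Radix, where it was not called.

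**Figure D2:**
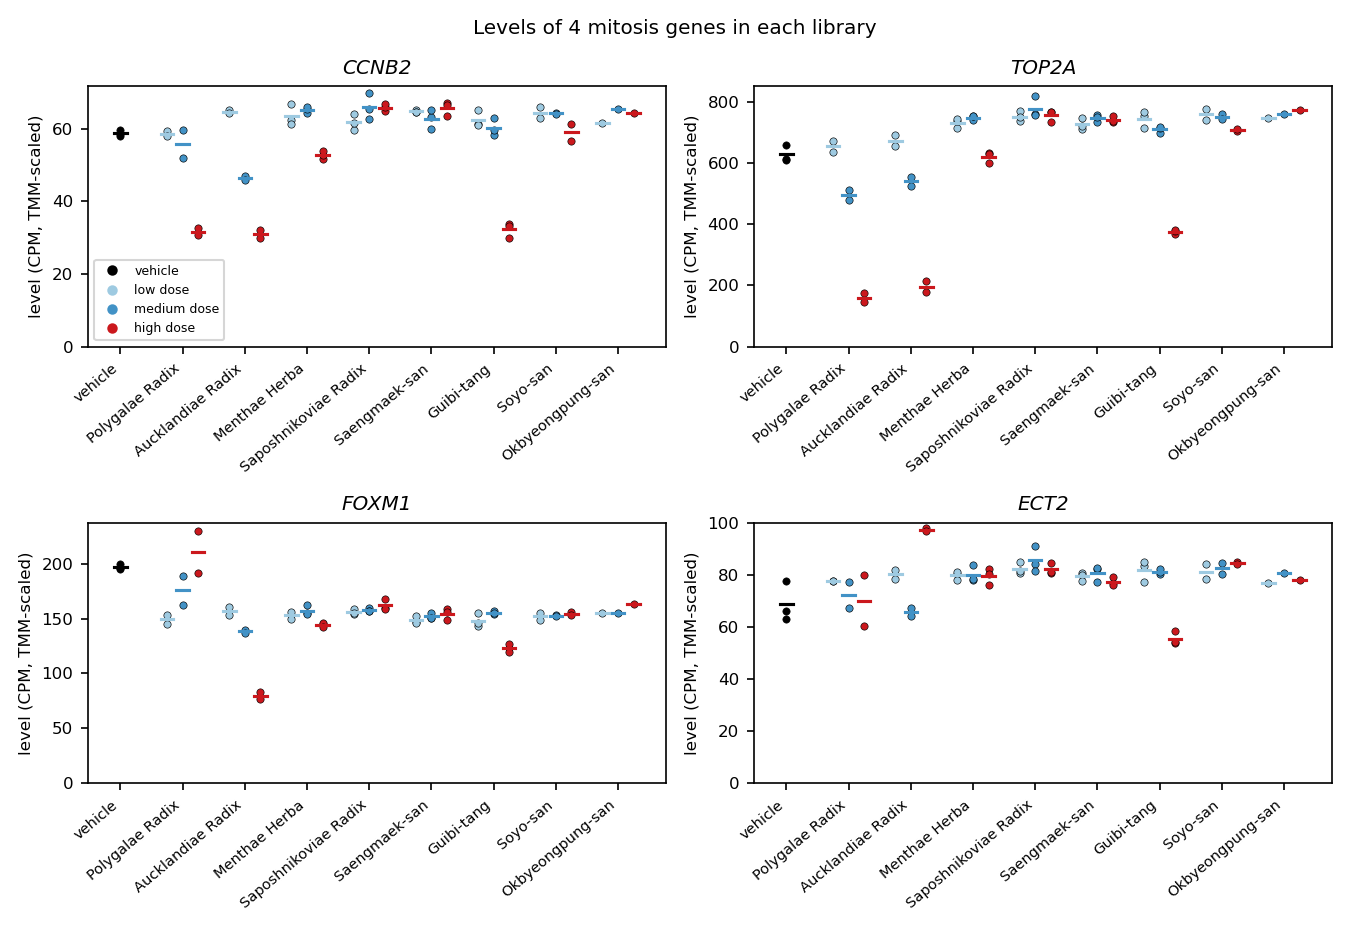
Level in CPM (TMM-scaled, axes from 0) of CCNB2, TOP2A, FOXM1 and ECT2 in each library (points) with the group mean (line), by extract and dose. CCNB2 and TOP2A are low at the high dose of 3 extracts. FOXM1 at the high dose is up with Polygalae Radix against its low dose, though not called against vehicle, and down with Aucklandiae Radix. ECT2 with Aucklandiae Radix is lower at the medium and higher at the high dose.

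Among the mitotic kinases and checkpoint genes, 6 of 6 were called lower with Polygalae Radix and with Guibi-tang, and 5 of 6 with Aucklandiae Radix and with Menthae Herba. PLK1, a kinase that acts from entry to exit, stood at 146, 132 and 144 CPM at the high dose of Guibi-tang against 275, 252 and 262 CPM. It stood at 88.7 and 107 CPM against 268 and 264 CPM with Aucklandiae Radix, and at 179 and 164 CPM against 262 and 247 CPM with Polygalae Radix. No high-dose library reached a low-dose one, and the log2 fold changes were -0.91 ± 0.04, -1.45 ± 0.06 and -0.57 ± 0.05 (SE). BUB1B, which encodes the checkpoint protein BUBR1, fell by 1.64 on the log2 scale with Aucklandiae Radix and by 0.32 with Polygalae Radix. TTK encodes the kinase MPS1, which starts the checkpoint signal. It fell by 0.63 with Polygalae Radix and by 0.63 with Guibi-tang, but with Aucklandiae Radix it stood at 33.6 and 32.2 CPM against 31.7 and 30.3 CPM, a log2 fold change of 0.08 ± 0.08 that was not called.

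The chromosomal passenger complex, which corrects faulty attachments of chromosomes, has 4 genes in the list. All 4 fell with Guibi-tang and with Aucklandiae Radix, 3 with Polygalae Radix and 2 with Menthae Herba. BIRC5 encodes survivin and stood at 110, 103 and 111 CPM at the high dose of Guibi-tang against 161, 166 and 162 CPM. With Aucklandiae Radix its level was 91.5 and 99.3 CPM against 150.5 and 153 CPM, and with Polygalae Radix 128 and 124 CPM against 159.5 and 158 CPM. In all 3 extracts its groups did not overlap. INCENP, the scaffold of the complex, was among the 3 genes that moved least with Guibi-tang, at 44.9, 46.8 and 43.8 CPM against 59.8, 55.7 and 57.3 CPM (-0.36 ± 0.05, called lower, no overlap). With Polygalae Radix it was called higher at the medium dose (0.33 ± 0.06) and was not called at the high dose (0.12 ± 0.06).

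Of the 5 centromere and kinetochore genes, 5 fell with Guibi-tang, 4 with Polygalae Radix, 4 with Aucklandiae Radix and 3 with Menthae Herba. CENPF, a large kinetochore protein, had 107 and 123 CPM at the high dose of Polygalae Radix against 247 and 264 CPM. With Aucklandiae Radix it had 103 and 117 CPM against 264 and 257 CPM, and with Guibi-tang 153, 181 and 151 CPM against 262, 272 and 283 CPM. The high-dose libraries were all lower, and log2 fold changes were -1.16 ± 0.07, -1.25 ± 0.07 and -0.76 ± 0.06. CENPA, the histone H3 variant that marks centromeres, and CENPE, the kinesin that carries chromosomes to the plate, separated the 2 herbs. CENPA stood at 26.3 and 27.2 CPM against 18.5 and 22.8 CPM with Polygalae Radix, and at 8.86 and 12.4 CPM against 22.6 and 21.2 CPM with Aucklandiae Radix. It was called higher with the first (0.34 ± 0.12) and lower with the second (-1.05 ± 0.13). CENPE stood at 22.5 and 28.1 CPM against 61.8 and 64.9 CPM with Polygalae Radix (-1.34 ± 0.11, called lower). With Aucklandiae Radix it stood at 70.5 and 70.4 CPM against 66.1 and 68.8 CPM, a log2 fold change of 0.06 ± 0.10 that was not called. With Menthae Herba CENPE was the gene that fell most, from 69.6, 62.0 and 59.9 CPM to 43.9, 49.7 and 38.3 CPM (-0.54 ± 0.08).

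The spindle genes gave the most even picture, since all 8 kinesins and spindle-associated genes fell with each of the 4 extracts. TPX2, which activates Aurora A on the spindle, stood at 157 and 156 CPM at the high dose of Polygalae Radix against 291 and 305 CPM. With Aucklandiae Radix it stood at 235 and 258 CPM against 313 and 318 CPM, and with Guibi-tang at 214, 234 and 206 CPM against 304, 315 and 318 CPM. Each high-dose library was lower. HMMR, a spindle pole protein, fell most of this group, from 50.7 and 52.8 CPM to 12.6 and 15.7 CPM with Polygalae Radix. Its log2 fold change was -1.89 ± 0.09 there, against -0.64 ± 0.08 with Aucklandiae Radix and -0.63 ± 0.06 with Guibi-tang.

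Of the 4 cytokinesis genes, 2 fell and 1 rose with Polygalae Radix and with Aucklandiae Radix, and all 4 fell with Guibi-tang. KIF20A, a kinesin of the central spindle, was among the genes that fell most with 3 herbs. It had 28.4 and 27.3 CPM against 76.3 and 77.6 CPM with Polygalae Radix (-1.47 ± 0.06), and 22.9 and 29 CPM against 87.0 and 87.1 CPM with Aucklandiae Radix (-1.75 ± 0.06). With Menthae Herba it had 59.8, 62.2 and 64.8 CPM against 87.1, 84.2 and 80.9 CPM (-0.44 ± 0.05), and no groups overlapped. KIF23, the kinesin subunit of centralspindlin, was called higher with Polygalae Radix, at 60.3 and 68.3 CPM against 58.7 and 54.5 CPM (0.18 ± 0.06), and lower with Aucklandiae Radix (-0.40 ± 0.06). ECT2 encodes the exchange factor that activates RhoA at the cleavage site. It stood at 97.9 and 96.9 CPM at the high dose of Aucklandiae Radix, 64.4 and 67.3 CPM at the medium dose and 82.0 and 78.5 CPM at the low dose. Both high-dose libraries were above the low dose and both medium-dose libraries below it. ECT2 was called higher at the high dose (0.27 ± 0.08, edgeR adjusted p = 0.0013) and lower at the medium dose (-0.29 ± 0.08, edgeR adjusted p = 0.021). With Guibi-tang it fell from 77.4, 83.4 and 84.9 CPM to 53.9, 58.6 and 54.1 CPM. ANLN, which encodes the ring scaffold anillin, stood at 61.1 and 75.2 CPM against 136 and 133 CPM with Polygalae Radix, where it fell by 0.99 on the log2 scale. With Aucklandiae Radix it stood at 127 and 125 CPM against 134.5 and 134.5 CPM and was not called, and with Guibi-tang at 109, 123 and 114 CPM against 132, 145 and 141 CPM, where it fell by 0.28.

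All 4 anaphase genes fell with Guibi-tang, and 2 of them fell most of the 39. UBE2C encodes the ubiquitin-conjugating enzyme of the APC/C, and stood at 25.3, 18.6 and 25.9 CPM against 47.4, 48.8 and 44.8 CPM. Securin, PTTG1, stood at 25.1, 18.4 and 23.1 CPM against 44.7, 45.6 and 43.3 CPM. Replicate 2 was the lowest of the 3 high-dose libraries for both, and all were below the low dose. Log2 fold changes were -1.01 ± 0.07 for UBE2C (edgeR adjusted p = 1.5e-16) and -1.003 ± 0.06 for PTTG1 (edgeR adjusted p = 4.5e-19). With Polygalae Radix UBE2C was at 48.4 and 45.0 CPM against 44.2 and 43.8 CPM and was not called. CDC20, the activator of the APC/C, fell with all 4 extracts. It went from 100.0 and 98.8 CPM to 38.3 and 36.9 CPM with Polygalae Radix (-1.41 ± 0.06), from 106.8 and 106.8 CPM to 64.4 and 74.5 CPM with Aucklandiae Radix (-0.63 ± 0.05), and from 108, 103 and 104 CPM to 70.6, 60.9 and 69.9 CPM with Guibi-tang (-0.65 ± 0.04).

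TOP2A encodes topoisomerase II alpha, which untangles sister chromatids, and fell most of all genes in the list with both Polygalae Radix and Aucklandiae Radix. It stood at 145 and 175 CPM against 671 and 636 CPM with the first, and at 178 and 215 CPM against 692 and 654 CPM with the second. With Guibi-tang it stood at 367, 378 and 379.7 CPM against 715, 754 and 766 CPM. The high-dose libraries lay far below the low dose in each, with log2 fold changes of -2.04 ± 0.06 (edgeR adjusted p = 1.7e-30), -1.78 ± 0.06 (edgeR adjusted p = 1.7e-28) and -0.99 ± 0.05 (edgeR adjusted p = 1.6e-21). MKI67 encodes Ki-67, the coat protein of mitotic chromosomes that is used as a proliferation marker. With Menthae Herba it fell from 546, 505 and 487 CPM to 375, 389 and 368 CPM (-0.45 ± 0.05), next to CENPE the largest change there.

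Whether 2 extracts differed was tested directly for the 3 pairs that stand in the same set and share no libraries, as the difference of their high-against-low changes. Aucklandiae Radix and Polygalae Radix lowered the median gene about equally and yet differed gene by gene. The change was more negative with Aucklandiae Radix for 18 genes (28.7% of all tested genes) and more positive for 14 (31.4%). FOXM1, with a difference of -1.47 ± 0.08 (SE, log2), CENPA with -1.39 ± 0.18, BUB1B with -1.31 ± 0.08, CCNA2 with -1.26 ± 0.09 and CDK1 with -1.16 ± 0.09 were lower with Aucklandiae Radix. CENPE with 1.40 ± 0.15, HMMR with 1.25 ± 0.12, CDC25C with 1.25 ± 0.11 and TTK with 0.70 ± 0.11 were lower with Polygalae Radix. These extracts differ in dose (250 and 280 ug/mL). Their high-dose libraries also differed in how level related to GC content. With that trend removed, the median change was -0.73 with Aucklandiae Radix and -0.66 with Polygalae Radix. The median difference was then -0.20. Without that step it was -0.09 in the main edgeR fit and -0.06 by DESeq2, which scales libraries in another way. Across the 39 genes, the changes with Polygalae Radix and Aucklandiae Radix had a Pearson correlation of 0.118 and those with Polygalae Radix and Guibi-tang 0.321. These are descriptions across genes, which are not independent replicates. The spread was also unlike: the SD of the log2 fold changes was 0.583 with Polygalae Radix, 0.533 with Aucklandiae Radix, 0.189 with Guibi-tang and 0.117 with Menthae Herba.

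**Figure D3:**
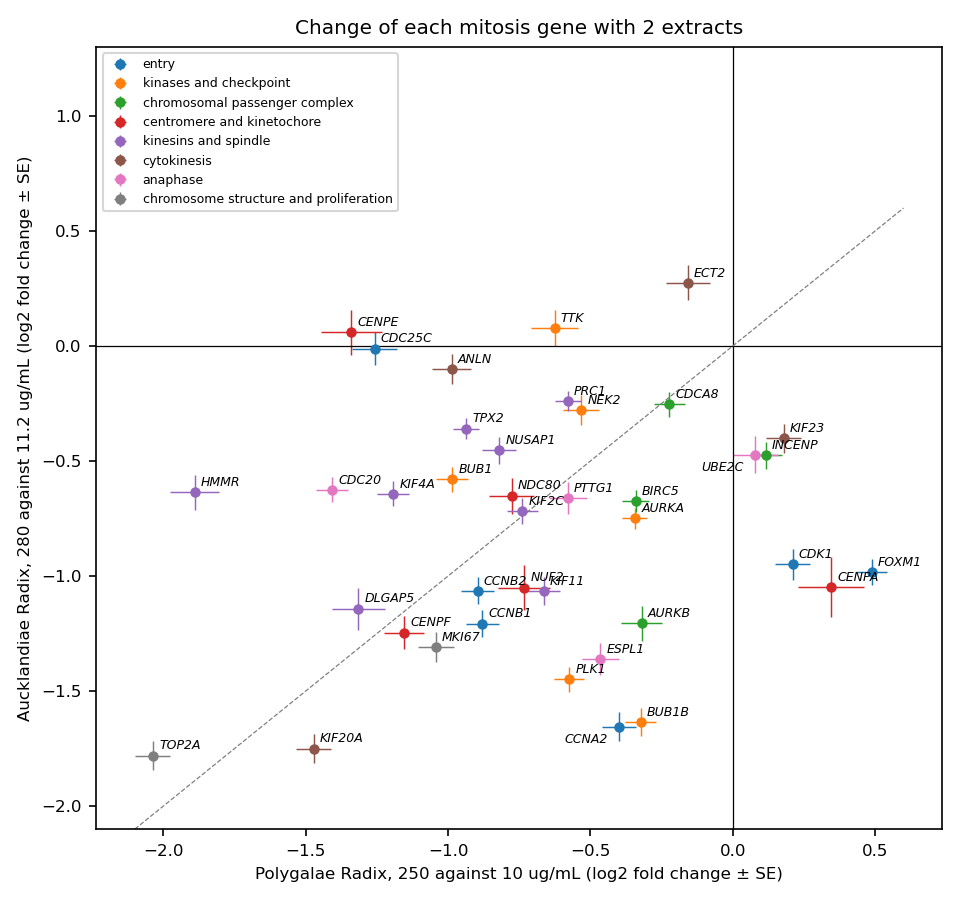
Log2 fold change of each of the 39 genes, high against low dose, with Polygalae Radix (x axis) and Aucklandiae Radix (y axis), with bars of 1 SE, colours by role and the dashed line of equal change. TOP2A and KIF20A lie low on both axes, while FOXM1, CDK1, CENPA and KIF23 lie right of 0 and below it, and CENPE, CDC25C and TTK lie left of 0 at no called change with Aucklandiae Radix.

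At 500 ug/mL, Guibi-tang lowered 39 of 39 genes more than Saengmaek-san did (10.2% of all genes; 9.4% in the other direction). The median difference was -0.63 on the log2 scale, and UBE2C differed most, by -1.07. Menthae Herba lowered 26 genes more than Saposhnikoviae Radix did (6.28% of all genes) and none less (4.34%), where KIF20A differed most, with -0.62 ± 0.06 (SE).

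At the other high doses few genes passed the test. With Saengmaek-san none of the 39 was called by edgeR, where 0.23% of all genes were called lower and 0.206% higher. At an unadjusted p under 0.05, 2 were higher and none lower, and DESeq2 called 0. CCNB2 stood at 63.7, 67.2 and 66.6 CPM against 65.3, 64.7 and 64.5 CPM there, with overlap. With Saposhnikoviae Radix 1 gene was called higher and none lower (0.389% and 0.442% of all genes), with 12 higher and none lower at an unadjusted p under 0.05, and DESeq2 called none lower. That gene was KIF20A, at 92.6, 96.0 and 89.7 CPM against 85.6, 82.5 and 78.2 CPM, a log2 fold change of 0.18 ± 0.04. The call was lost without replicate 1 or 2 of the high dose and without replicate 2 or 3 of the low dose. With Soyo-san 3 genes were called lower and none higher (1.83% and 2.13% of all genes). They were UBE2C (-0.32 ± 0.08), BIRC5 (-0.18 ± 0.05) and TPX2 (-0.15 ± 0.05), named here after their values were seen. Of these 3 calls, none was left without replicate 1 of the high dose or replicate 2 of the low dose, and 1 was left without replicate 2 of the high dose or replicate 1 of the low dose. With Okbyeongpung-san, in single libraries and with no test, none of the 39 genes moved past 1.5-fold between the low and the high dose (5.72% of all genes were lower and 3.78% higher), and log2 differences ran from -0.13 (CDCA8) to 0.16 (CDC20).

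Calls in the 4 active extracts held up better to the loss of a library. The count with Guibi-tang was 39 and that with Aucklandiae Radix 34 without any one library. With Polygalae Radix the 32 lower calls became 32 to 33, while the 4 higher calls became 2 without replicate 3 of the high dose or replicate 3 of the low dose, in both of which CDK1 and KIF23 were no longer called. Without replicate 3 of the high dose INCENP was newly called. CENPA was not called without replicate 3 of the high dose (0.31) or replicate 2 of the low dose (0.22). With Menthae Herba the 28 lower calls became 24 to 28, and FOXM1 (144.9, 145.8 and 142 CPM against 153.5, 155.8 and 149.5 CPM), BUB1B (68.9, 76.7 and 73.8 CPM against 75.2, 78.8 and 77.8 CPM) and ECT2 (76.0, 82.3 and 80.3 CPM against 80.2, 78.0 and 81.3 CPM) moved least and were not called.

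At the medium dose most calls came from Aucklandiae Radix, where 21 genes were lower at 56 ug/mL and none higher (2.03% and 2.32% of all genes; at an unadjusted p under 0.05, 32 were lower and none higher). CCNB2 (-0.48 ± 0.06) and PTTG1 (-0.48 ± 0.07) fell most. With Polygalae Radix at 50 ug/mL TOP2A and KIF4A, a chromosome-bound kinesin, were called lower and FOXM1 and INCENP higher (5.09% and 3.33% of all genes). The 2 medium-dose libraries differed in the relation of level to GC content. It was 0.171 log2 units per 10 points of GC in replicate 2 and 0.001 in replicate 3, against -0.01 and -0.002 at the low dose. Transcripts of FOXM1 and INCENP are 55.6% and 59.6% GC, those of TOP2A and KIF4A 39.1% and 46.4%. Medium doses were not tested with the GC trend removed. TOP2A stood at 480.3 and 513 CPM there, between its low and high dose. In the 5 other extracts edgeR called none of the 39 genes at the medium dose, and at an unadjusted p under 0.05 there were 1 higher with Menthae Herba, 12 higher with Saposhnikoviae Radix, 3 higher with Saengmaek-san, 3 higher and 1 lower with Guibi-tang and none with Soyo-san. Of all genes, 1.74% were called lower and 1.86% higher at the medium dose of Guibi-tang, 0.0942% and 0.0236% with Menthae Herba, 0.00589% and 0.00589% with Saposhnikoviae Radix, 0% and 0% with Saengmaek-san, and 0% and 0.00589% with Soyo-san. Guibi-tang thus had no called gene at 100 ug/mL and 39 at 500 ug/mL, and the mean log2 level of the 39 genes differed from the low dose by 0.02, 0.02 and 0.03 in the medium-dose libraries and by -0.61, -0.65 and -0.62 in the high-dose libraries.

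Related gene lists were read in the same fit, against shares of all tested genes called lower and higher of 17.5% and 16.8% with Guibi-tang, 35.5% and 33.9% with Aucklandiae Radix, 33% and 31.1% with Polygalae Radix, and 12.5% and 10.8% with Menthae Herba. Of 74 other mitosis genes (condensins, further kinetochore and spindle genes), 64 fell and none rose with Guibi-tang, 58 fell and 10 rose with Aucklandiae Radix, 41 fell and 15 rose with Polygalae Radix, and 28 fell and 3 rose with Menthae Herba. NCAPD2, a condensin subunit, changed by -1.50 ± 0.04 with Polygalae Radix and by -0.89 ± 0.04 with Guibi-tang, and SPC24, of the NDC80 complex, by -2.29 ± 0.11 with Aucklandiae Radix. PSRC1, a spindle protein, changed most with Guibi-tang (-1.10 ± 0.07) and Menthae Herba (-0.64 ± 0.07). Of 40 genes of DNA replication, 36 fell and 2 rose with Aucklandiae Radix, where UHRF1, a cofactor of maintenance methylation, had -2.66 ± 0.06. With Polygalae Radix 26 fell and 9 rose, led by RRM1, a subunit of ribonucleotide reductase, at -1.78 ± 0.05. With Guibi-tang 24 fell and 1 rose, led by TYMS, thymidylate synthase, at -0.58 ± 0.05. With Menthae Herba 3 fell and 4 rose, among them CDC45, of the replicative helicase, and RRM2, both at 0.23. So with Menthae Herba 28 of the 39 mitosis genes and 3 of the 40 replication genes were lower. Of 17 genes for APC/C subunits and cofactors, 5 fell and none rose with Guibi-tang (1 rose at an unadjusted p under 0.05), 8 fell and 5 rose with Aucklandiae Radix, 9 fell and 3 rose with Polygalae Radix, and edgeR called none with Menthae Herba (3 higher and 1 lower at an unadjusted p under 0.05). UBE2S, the chain-elongating enzyme that works after UBE2C, rose by 1.33 ± 0.09 with Aucklandiae Radix and by 0.86 ± 0.10 with Polygalae Radix, and fell by 0.53 with Guibi-tang.

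**Figure D4:**
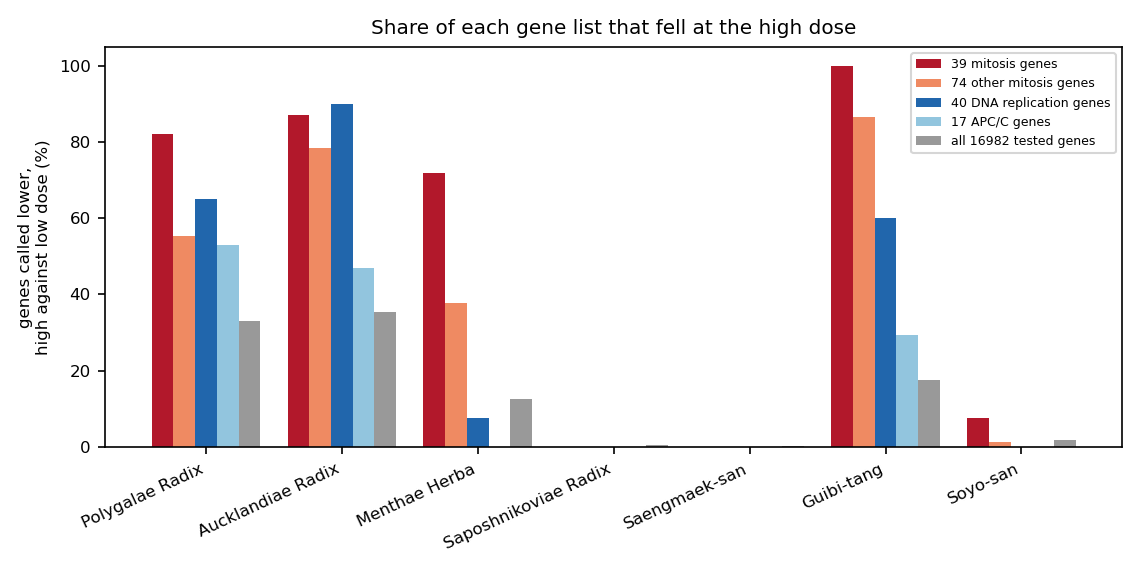
Share of genes called lower at the high against the low dose (percent, bars from 0) for the 39 mitosis genes, 74 other mitosis genes, 40 DNA replication genes, 17 APC/C genes and all 16982 tested genes, by extract. The mitosis genes stand above all tested genes with Guibi-tang, Aucklandiae Radix, Polygalae Radix and Menthae Herba. They also do with Soyo-san, on 3 of 39 genes, where 1.83% of all tested genes were lower. With Menthae Herba the replication genes (7.5%) stand below all tested genes (12.5%).

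Of 39 regulators of entry into mitosis, 38 were tested. With Polygalae Radix 21 rose and 8 fell, where 31.1% of all genes rose and 33% fell, and WEE1, the kinase that holds CDK1 inactive, rose by 1.17 ± 0.06, E2F3, an activating E2F factor, by 1.06 ± 0.05 and CDC25A by 0.76 ± 0.05. With Aucklandiae Radix 10 rose and 24 fell (33.9% and 35.5% of all genes). There the stress gene GADD45B rose by 4.45 ± 0.16, the CDK inhibitor genes CDKN2D by 2.53 ± 0.14 and CDKN1A (p21) by 2.16 ± 0.10, and E2F8, a repressing E2F factor, fell by 2.90. With Guibi-tang 3 rose and 16 fell (16.8% and 17.5% of all genes). With Menthae Herba 4 rose and 6 fell, shares near those of all genes (10.8% and 12.5%). CDKN1A rose with Guibi-tang (0.61 ± 0.08) and with Menthae Herba (0.30 ± 0.08), and with Polygalae Radix its value was 0.12, not called. CDKN2C, the CDK inhibitor p18, went the other way, at -0.76 ± 0.07 with Guibi-tang, -0.35 ± 0.06 with Menthae Herba, -0.92 ± 0.09 with Aucklandiae Radix and -0.30 ± 0.08 with Soyo-san, called lower in each. CCNF, cyclin F, fell with both Guibi-tang (-0.64 ± 0.05) and Menthae Herba (-0.35 ± 0.05).

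Against vehicle, which all extracts share, 38 genes were lower and none higher at the high dose of Guibi-tang (25.4% and 25.6% of all genes), 34 lower and 4 higher with Aucklandiae Radix (36.7% and 36.6%), 33 lower and 3 higher with Polygalae Radix (33.8% and 33.1%), and 23 lower and 2 higher with Menthae Herba (24.2% and 24%). For Guibi-tang no gene was higher at an unadjusted p under 0.05 or by DESeq2 either, although 1 was higher without replicate 2 of its high dose. The 4 higher calls with Aucklandiae Radix (ECT2, CDC25C, CENPE and TTK) became 2 without vehicle replicate 2 or 3 or without either high-dose library, and the 2 with Menthae Herba (CDK1 and ECT2) became 1 without vehicle replicate 3. With the GC trend removed TTK turned to -0.031 and CENPE to -0.17 with Aucklandiae Radix. Against the low doses of all 7 extracts pooled, CDC25C turned to -0.031 with Aucklandiae Radix, and CDK1 to -0.11 and ECT2 to -0.021 with Menthae Herba. All 32 genes lower with Polygalae Radix against its low dose, all 34 with Aucklandiae Radix, 38 of 39 with Guibi-tang and 19 of 28 with Menthae Herba were lower against vehicle as well. Both comparisons use the same high-dose libraries, so part of this overlap is built in. Its share over all tested genes is not given. The exception with Guibi-tang was CDK1, with a value of 0.10 against vehicle. The same comparison gave 18 genes higher and 4 lower with Saposhnikoviae Radix (20.2% and 19.9%), 16 and 6 with Saengmaek-san (20.5% and 20%), and 11 and 10 with Soyo-san (19.8% and 19%), where the 11 became 6 without replicate 2 of the high dose. With the GC trend removed the higher calls of these 3 extracts were 10, 6 and 5 (2572, 2692 and 2785 of all 16982 genes). Against low doses pooled over extracts they were 3, 0 and 0 (263, 53 and 794 of all genes), with 0, 0 and 2 lower calls (240, 112 and 727).

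The vehicle libraries stood apart from the low doses for single mitosis genes. PLK1 was at 325, 317 and 326 CPM in vehicle and between 247 and 284 CPM in the 19 low-dose libraries, that of Okbyeongpung-san included, and MKI67 at 685, 626 and 656 CPM against 474 to 547 CPM. FOXM1 was at 196, 199 and 195 CPM against 143 to 160.2 CPM. CDK1 went the other way, at 49.8, 49.5 and 46.7 CPM in vehicle against 62.9 to 76.7 CPM, as did KIF11, the kinesin that separates spindle poles, at 95.8, 90.8 and 85.8 CPM against 99.3 to 109.7 CPM. The vehicle libraries also had a steeper relation of level to GC content (0.09 to 0.207 log2 units per 10 points of GC, against -0.119 to 0.171 in the others). Of the genes just named, PLK1, MKI67 and FOXM1, which were higher in vehicle, have transcripts of 57.1%, 48.3% and 55.6% GC, and CDK1 and KIF11, which were lower, of 37.0% and 38.3%. Between 6 and 17 genes were called higher and between 5 and 10 lower at the low doses against vehicle (18.7% of all genes higher and 17.4% lower with Polygalae Radix, 16.9% and 16.4% with Aucklandiae Radix, 19.4% and 18.6% with Menthae Herba, 19.1% and 18.5% with Saposhnikoviae Radix, 20.2% and 18.5% with Saengmaek-san, 20.4% and 19.7% with Guibi-tang, and 17.6% and 16.6% with Soyo-san). With the GC trend of each library removed, an alternative chosen after seeing the data, 2 to 7 were called higher and 5 to 13 lower. Of all 16982 tested genes, 2124 to 2546 were then called higher and 2258 to 2745 lower. Set, treatment and GC trend cannot be told apart in these comparisons with vehicle, and the high against low comparisons do not use the vehicle libraries. The GC relation differed there as well. It was -0.119 to -0.095 at the high dose of Aucklandiae Radix, against 0.003 to 0.018 at its low dose. With Polygalae Radix it was -0.091 and 0.106 in the high-dose libraries, against -0.01 and -0.002.

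Over the 57 libraries, CCNB2 followed the mean of the 39 genes most closely (Pearson r = 0.983), followed by CENPF (0.968) and CCNB1 (0.967), while ECT2 (0.412), FOXM1 (0.438) and INCENP (0.544) followed it least. Outside all lists, the 10 genes whose log2 level was most like the mean of the mitosis genes were UGT2B10 (r = 0.955), HMGB1 (0.949), PSME2 (0.947), FABP1 (0.939), HMGB3, DBI, C8A, PRR11, PEG10 and PTCHD4 (0.914). The r values are descriptions over libraries that share treatments. UGT2B10, a glucuronosyltransferase, and FABP1, the liver fatty acid-binding protein, belong to the differentiated liver. With FABP1 the mean log2 difference of high from low dose was -2.17 with Polygalae Radix, -3.10 with Aucklandiae Radix, -0.62 with Menthae Herba and -2.27 with Guibi-tang. The 10 genes were picked for their likeness to the mitosis genes in the same libraries. Falls shared with the mitosis genes therefore follow from that choice.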

How the data were processed

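The authors deposited RSEM's expected counts for each gene, which are not scaled to depth. Per the submitters' processing notes, reads went through FastQC 0.11.9, Trim Galore 0.6.5, STAR 2.7.3a and RSEM 1.3.3 on GRCh38. Per the labels, libraries came from a directional kit. The annotation release is not given in the sources used here, nor is the strand setting, so antisense or overlapping genes may share reads. 9.97% of values were not whole, and counts were rounded. Symbols, length and GC content came from GENCODE 29.

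The members and lists were chosen with earlier results of these data known. Genes were tested in R 4.3.3 with edgeR 4.0.16 (quasi-likelihood, TMM, filterByExpr with a minimum count of 10) in 1 fit of 57 libraries in 22 groups, with 35 residual degrees of freedom, adjusted by Benjamini-Hochberg per contrast over 16982 genes. SE is the log2 fold change over the root of F. CPM values are TMM-scaled, and log2 CPM used a prior count of 2. The test was tested on simulated data. Values in every library are given for the highest gene of each role and the 3 highest and 3 lowest changes per extract with at least 10 calls. Genes called against the majority are named as well. CCNB2 and KIF11 were picked outside this rule. From other lists, up to 4 genes with the largest called changes were candidates. The value of 1 such gene is not reported here. Alternatives were DESeq2 1.42.0, RLE scaling, other filters, fits of 2 groups, a replicate block, GC trend removal, pooled low doses as reference, and each library left out. No 2 libraries of a group were copies (chi-square per gene at least 1.79). Promoter windows are from RefSeq.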

Additional observations from a re-analysis of the deposited data

Results flagged for a closer look

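The difference between 2 extracts of the same set was called by edgeR for 32 genes between Aucklandiae Radix and Polygalae Radix. For that pair 28.7% of all tested genes were called lower and 31.4% higher. It was called for 26 between Menthae Herba and Saposhnikoviae Radix (6.28% lower and 4.34% higher of all genes). Between Guibi-tang and Saengmaek-san it was called for 39 (10.2% and 9.4%). Between the first pair, 4 genes rose with Polygalae Radix and fell with Aucklandiae Radix, with differences in log2 fold change of -1.47 for FOXM1, -1.39 for CENPA, -1.16 for CDK1 and -0.58 for KIF23. These are changes from the low dose, and FOXM1 was not called against vehicle with Polygalae Radix. KIF20A rose with Saposhnikoviae Radix and fell with Menthae Herba, with a difference of -0.62.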

How the results depend on the processing

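For the high against the low dose, no called gene changed direction under any alternative run, and every call with Guibi-tang and Aucklandiae Radix was kept. Lost calls were CDK1, CDCA8, CENPA and KIF23 with Polygalae Radix, CDC25C, NEK2, BUB1, KIF2C and NUSAP1 with Menthae Herba, and those named in the report for Saposhnikoviae Radix and Soyo-san. With only the 2 groups fitted, 2 genes were higher with Polygalae Radix and 3 with Saposhnikoviae Radix. With no filter, 0 were higher with Saposhnikoviae Radix and 1 was lower with Soyo-san (103 and 378 of all 35642 genes). Against vehicle 2 were then higher with Aucklandiae Radix and 7 with Soyo-san (6302 and 2953 of all genes). DESeq2 called 2 higher with Saposhnikoviae Radix against the low dose (84 of all 16982 genes).

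With the GC trend removed, 5 were higher with Saposhnikoviae Radix and 6 lower with Soyo-san against the low dose (168 and 445 of all genes). Against vehicle 2 were then higher with Aucklandiae Radix, 1 with Menthae Herba, 6 with Saengmaek-san, 10 with Saposhnikoviae Radix and 5 with Soyo-san. Of all 16982 tested genes, 6356, 3805, 2692, 2572 and 2785 were higher in that order. At the low dose against vehicle, the higher calls were then 2 (Polygalae Radix), 5 (Aucklandiae Radix), 4 (Menthae Herba), 7 (Soyo-san), 6 (Saposhnikoviae Radix), 4 (Guibi-tang) and 5 (Saengmaek-san). Between 2124 and 2546 of all 16982 tested genes were higher in these comparisons. TTK turned to -0.031 and CENPE to -0.17 with Aucklandiae Radix against vehicle.

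With pooled low doses as reference in place of the own low dose, 3 were higher with Saposhnikoviae Radix. In place of vehicle, 1 was higher with Aucklandiae Radix, 0 with Menthae Herba, 3 with Saposhnikoviae Radix, 0 with Saengmaek-san and 0 with Soyo-san, and 0 were lower with Saposhnikoviae Radix, 0 with Saengmaek-san and 2 with Soyo-san. Of all 16982 tested genes, 6436, 2738, 263, 53 and 794 were higher in that order, and 240, 112 and 727 lower. Values that reversed were INCENP with Polygalae Radix (0.060), CDC25C with Aucklandiae Radix (-0.031), and CDK1 (-0.11) and ECT2 (-0.021) with Menthae Herba. The cause of these moves was not tested.

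Without 1 library, counts of higher calls against the low dose were 2 to 4 with Polygalae Radix and 0 to 1 with Saposhnikoviae Radix, and lower calls 0 to 1 with Soyo-san and 24 to 28 with Menthae Herba. Against vehicle, higher calls were 2 to 4 with Aucklandiae Radix, 1 to 2 with Menthae Herba, 0 to 1 with Guibi-tang, and 6 to 16 with Soyo-san. Where 1 library was left in a group, its spread was taken from the rest.

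Replicate numbers did not pair libraries: correlations of same-numbered libraries ran from -0.062 to 0.069. With the replicate block, 33 genes were lower with Polygalae Radix, 29 with Menthae Herba and 39 with Guibi-tang (5631, 2188 and 3041 of all 16982 genes). Groups of 2 libraries limit the precision with Polygalae Radix, Aucklandiae Radix and Soyo-san.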
